A study of Mus musculus with 18 samples.

Results

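The AP-1 and BATF family factors examined here are 10 genes, Fos, Fosb, Fosl2, Jun, Junb, Jund, Batf, Batf3, Atf3 and Maff, taken by their Ensembl identifiers in GENCODE M21 from the 55536 identified genes of the deposited count table. All 10 were found, and all 10 passed the filter on low counts in each comparison. Their levels were read in 18 RNA-seq libraries made from CD8+ T cells of mouse spleen and lymph node, each labelled with the genotype OT-I, a T cell receptor transgene that recognises the ovalbumin peptide SIINFEKL. There were 8 libraries labelled naive (day 0) and, from day 4 after stimulation, 8 labelled control and 2 labelled Tra2bKO. The stimulated cells had been given SIINFEKL together with antibodies that engage OX40 and 4-1BB, both costimulatory receptors, and the control cells carried a scrambled sequence. The labels give neither the ages and numbers of the mice, nor how Tra2b was targeted, nor whether each library is a different animal. The p-values therefore reflect only how much these libraries varied, and that variation may be technical.

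AP-1 is a dimer of basic leucine zipper proteins, usually a FOS protein with a JUN protein, which binds the TGANTCA element and is activated by mitogen-activated protein (MAP) kinases downstream of the T cell receptor. BATF and BATF3 lack the transactivation domains of FOS, pair with JUN proteins and bind composite elements with IRF4 or IRF8, and BATF is needed for effector CD8 T cells to expand. Fos, Fosb, Jun, Junb and Atf3 belong to the immediate early genes, whose transcripts rise within minutes of a stimulus and decay quickly. ATF3 is a stress-induced member that binds cyclic AMP response elements (CRE), and MAFF is a small MAF protein, which has a leucine zipper but no transactivation domain.

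Of the 5 genes called in the first 2 comparisons below, the 4 whose promoters hold a core of the CRE are shown, as the 250 bases before a RefSeq start in GRCm38.p6, 5′ to 3′ on the strand of the gene. Capitals mark the CRE core TGACGT or its complement ACGTCA, the full CRE TGACGTCA and, in Fos, the TATA element TATAAA.
Fos chr12:85473640-85473889 (+ strand): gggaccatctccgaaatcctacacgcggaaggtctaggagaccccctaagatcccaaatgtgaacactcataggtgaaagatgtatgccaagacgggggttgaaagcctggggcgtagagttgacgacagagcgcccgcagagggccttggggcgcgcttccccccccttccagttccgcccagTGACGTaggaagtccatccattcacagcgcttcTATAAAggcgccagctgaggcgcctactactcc
Batf chr12:85686470-85686719 (+ strand): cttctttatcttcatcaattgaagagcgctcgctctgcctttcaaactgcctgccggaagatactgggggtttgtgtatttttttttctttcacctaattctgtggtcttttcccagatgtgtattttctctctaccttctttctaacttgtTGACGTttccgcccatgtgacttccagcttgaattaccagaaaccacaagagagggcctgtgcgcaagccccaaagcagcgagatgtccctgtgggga
Atf3 chr1:191183334-191183583 (- strand): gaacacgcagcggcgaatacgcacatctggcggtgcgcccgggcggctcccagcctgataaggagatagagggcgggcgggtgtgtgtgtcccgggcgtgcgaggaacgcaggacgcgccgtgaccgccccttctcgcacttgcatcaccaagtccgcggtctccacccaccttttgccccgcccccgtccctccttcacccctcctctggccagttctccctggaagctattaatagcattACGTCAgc
Maff chr15:79347270-79347519 (+ strand): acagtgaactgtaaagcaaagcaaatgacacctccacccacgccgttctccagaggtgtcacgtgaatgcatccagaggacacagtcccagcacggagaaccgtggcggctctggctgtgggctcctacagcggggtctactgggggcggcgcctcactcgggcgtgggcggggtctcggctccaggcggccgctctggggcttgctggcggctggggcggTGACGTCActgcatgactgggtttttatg
RefSeq windows were found for 10 of 10 genes, 12 windows in all because Maff has 3 starts. The CRE core was present in 4 of the 12, namely those of Fos (66 bases before the start), Batf (98), Atf3 (8) and Maff (29), against 6.47% of 32851 promoter windows of the same length. This core was added to the search after the sequences had been read, and it overlaps the full CRE, which was found in 1 of 12 windows (Maff) and in 1.55% of all. The AP-1 element TGANTCA was in 0 of 12 (6.75% of all), the serum response CArG box in 0 of 12 (1.47%) and TATAAA, searched on the strand of the gene, in 1 of 12 (Fos, 33 bases before the start; 7.59%). Motifs other than TATAAA were searched on both strands, and a match describes letters, not binding. Only these 250 bases were searched, so an element farther upstream would be missed. The Jund window, chr8:70697489-70697738, also ends well before the GENCODE start of Jund at 70698949. The Atf3 window lies inside the GENCODE gene, which begins at 191218039 on the minus strand. The windows of Fosl2 and Batf3 and the Maff window shown also lie inside their GENCODE genes.

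Total counts ran from 68249844 to 93972513 per library. Tra2b stood at 361 and 371 CPM (counts scaled to library size) in the libraries labelled Tra2bKO and between 338 and 525.9 CPM in the controls, so the groups overlapped (log2 fold change -0.34, SE 0.13, edgeR adjusted p = 0.0899), and the gene level did not check the knockout label. Trbv12-1, the beta chain segment of the OT-I receptor, held 5.96 to 12.5% of Trbv counts in the libraries labelled naive, against 99.7 to 99.9% in the controls and 99.5 and 99.7% in those labelled Tra2bKO; most Trbv counts of the naive libraries were thus not from the segment of the labelled transgene. Markers of other cells differed between naive and stimulated libraries too. Summed MHC class II transcripts (4 of 4 genes lower in control) ran from 1107 to 3282 CPM in naive, 119 to 446 CPM in control and 77.3 to 100.1 CPM in Tra2bKO libraries. Dendritic cell markers (6 of 6 tested lower) ran from 70.3 to 159.5 CPM, 19.1 to 37.1 CPM and 39.7 to 51.3 CPM, with Siglech at 0 in every stimulated library. B cell markers, mostly Ighm, ran from 738 to 1198 CPM, 396 to 476 CPM and 670 to 835 CPM (7 of 9 tested lower in control; Ebf1 at 0 in both Tra2bKO libraries), and monocyte and macrophage markers from 47.1 to 110.5 CPM, 25.0 to 43.3 CPM and 42.8 to 65.1 CPM (4 of 6 lower). CD8 T cell transcripts ran from 5356 to 6430 CPM in naive and from 3423 to 4279 CPM in stimulated libraries. CD4 T cell markers went the other way in most controls, with 2 of 4 genes called higher in control and 1 lower. They summed to 4.13 to 6.07 CPM in naive, 4.42 to 20.8 CPM in control and 3.77 to 4.71 CPM in Tra2bKO libraries. Natural killer cell markers ran from 315 to 466 CPM in naive, 134 to 409.5 CPM in control and 483 to 552 CPM in Tra2bKO libraries. They were mostly Klrk1 and Eomes, which CD8 T cells also make. The controls were split: controls 1 and 2 held 409.5 and 391 CPM, and controls 3 to 8 held 134 to 231 CPM. Eomes stood at 63.3 and 54.6 CPM in controls 1 and 2, 12.1 to 20.3 CPM in controls 3 to 8, and 58.1 and 59.25 CPM in Tra2bKO libraries. The part of this split in Tra2bKO against control was not tested. Klrb1c ran from 5.04 to 19.0 CPM in naive libraries and stood at 0.244 and 0.395 CPM in Tra2bKO libraries. Xist, expressed from the inactive X chromosome, was at 12.3 CPM or more and the Y-linked Ddx3y at 20.9 CPM or more in every stimulated library, whereas naive libraries ran from 0.0409 to 127 CPM of Xist and from 0.498 to 136.5 CPM of Ddx3y and so did not all come from the same animals.

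In control against naive libraries, Fos and Atf3 fell, Batf and Batf3 rose, and the other 6 genes did not pass the test. Thus 2 of 10 genes were called higher and 2 of 10 lower at an edgeR adjusted p under 0.05, in a comparison where 32.5% of all tested genes were called higher and 39% lower. The share of the 10 genes called, 4 of 10, lay below the 71.5% of 17078 genes called in either direction. The median log2 fold change of the 10 was 0.0053, against -0.08 over all tested genes. In libraries labelled Tra2bKO against controls, Maff fell and the other 9 genes did not pass the test.

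**Figure D1:**
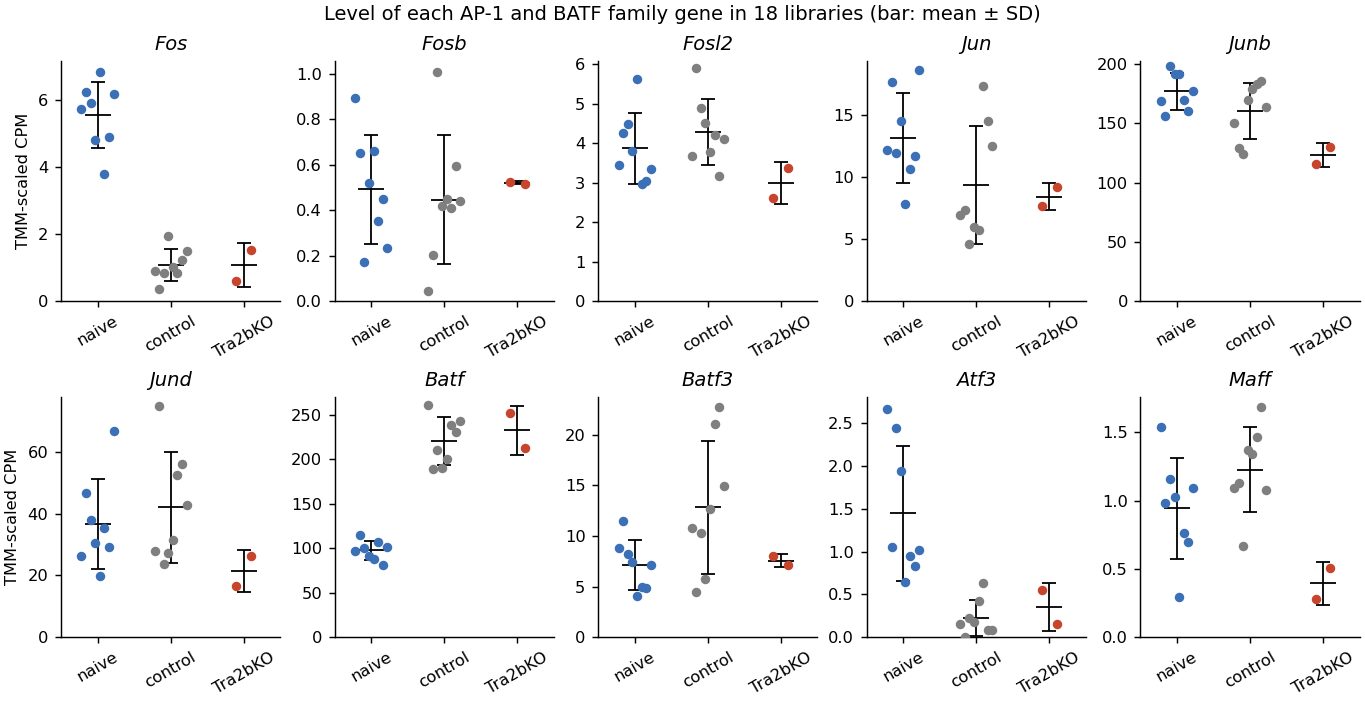
Level of each of the 10 genes (TMM-scaled CPM, vertical axis) in every library, grouped as naive (8), control (8) and Tra2bKO (2); bars show the mean ± SD. Fos in naive libraries (3.79 to 6.85 CPM) lies above every stimulated library, Batf in naive libraries (81.6 to 115 CPM) lies below every stimulated library, and Jun, Jund and Batf3 spread widely among the controls.

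Fos (ENSMUSG00000021250.13, GRCm38 chr12:85473890-85477273, plus strand) encodes the founding FOS protein, an activating partner of JUN. Its level was 3.79 CPM in the lowest, 5.83 CPM in the median and 6.85 CPM in the highest naive library, against 0.349, 0.962 and 1.94 CPM in the controls. The highest control lay below the lowest naive library, so the groups did not overlap, a separation shared by 42.3% of tested genes. The log2 fold change was -2.34 (SE 0.25, edgeR adjusted p = 1.15e-07), a 5.05-fold lower level. Since these are bulk libraries, fewer cells with the transcript and less of it per cell cannot be told apart. In the libraries labelled Tra2bKO Fos stood at 0.603 and 1.54 CPM, inside the range of the controls. The log2 difference from the controls was -0.01 with a 95% interval from -0.98 to 0.96, too wide to tell whether Fos differed.

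The other FOS genes showed no called difference in these comparisons with all libraries. Fosb (ENSMUSG00000003545.3, chr7:19302696-19310051, minus strand) encodes a close relative of FOS and was scarce, at 0.171, 0.485 and 0.894 CPM (lowest, median, highest) in naive and 0.0429, 0.430 and 1.01 CPM in control libraries, which rested on as few as 3 counts in control 1. Naive and control libraries overlapped over most of their range (log2 fold change -0.14, SE 0.42). With controls 1 and 2 alone, the log2 fold change was -1.76 (edgeR adjusted p = 0.0485). These were the lowest controls in Fosb, so that fit cannot tell whether Fosb fell in the control group. With the other controls alone the log2 fold change was 0.19. Both libraries labelled Tra2bKO stood within the range of the controls, at 0.526 and 0.516 CPM. Fosl2 (ENSMUSG00000029135.10, chr5:32135801-32157842, plus strand) encodes FRA2, which lacks the transactivation domain of FOS, and stood at 2.97, 3.62 and 5.64 CPM in naive and 3.17, 4.16 and 5.91 CPM in control libraries. The log2 fold change was 0.15 (SE 0.15, edgeR adjusted p = 0.384), and it became 0.41 with an adjusted p of 0.0169 once a dependence of counts on transcript length and GC content (the length and GC trend) was removed. Fosl2 stood at 2.61 and 3.37 CPM in the libraries labelled Tra2bKO, of which the lower lay under every control and the higher did not (log2 fold change -0.51, SE 0.23, edgeR adjusted p = 0.155).

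Junb (ENSMUSG00000052837.6, chr8:84974484-84978718, minus strand) encodes the JUN protein that is a main partner of BATF in T cells and was the most abundant of the JUN transcripts per kilobase. It stood at 156, 174 and 198 CPM in naive and at 124, 167 and 185 CPM in control libraries. The ranges overlapped, and the difference did not pass the test (log2 fold change -0.14, SE 0.08, edgeR adjusted p = 0.144). It passed with libraries scaled by total counts alone (-0.23, adjusted p = 0.0169). The libraries labelled Tra2bKO held 116 and 130 CPM of Junb, below 6 of the 8 controls for both and below all 8 for the first. That difference was not called (-0.38, SE 0.15, edgeR adjusted p = 0.108), but was without control 3 (-0.42, adjusted p = 0.0399). Junb overlaps Prdx2 on the opposite strand, and reads of the overlap could not be assigned by strand with this kit; Prdx2 moved the other way, from 134.9 ± 9.08 to 217 ± 16.8 CPM (SD, n = 8 each).

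Jun (ENSMUSG00000052684.4, chr4:95049034-95052222, minus strand) encodes c-JUN, the founding JUN protein, and varied widely among libraries of one group. It stood at 7.81, 12.1 and 18.7 CPM in naive and at 4.61, 7.15 and 17.4 CPM in control libraries. The 3 highest controls were 6, 7 and 8, at 17.4, 14.6 and 12.6 CPM, and the other 5 lay between 4.61 and 7.37 CPM, below all naive libraries. The group difference did not pass the test (log2 fold change -0.48, SE 0.26, edgeR adjusted p = 0.110), and did without control 6 (-0.65, adjusted p = 0.0252), with controls 1 and 2 alone (-0.83, adjusted p = 0.0261) and with limma voom (-0.58, adjusted p = 0.0441). Both libraries labelled Tra2bKO lay inside the range of the controls, at 7.66 and 9.19 CPM (-0.15, 95% interval from -1.03 to 0.72). Controls 6, 7 and 8 were also the highest controls in summed MHC class II transcripts, at 420 CPM, 446 CPM and 254 CPM against 119 to 215 CPM in the other 5; the part of that difference in Jun was not tested.

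Jund (ENSMUSG00000071076.6, chr8:70698949-70700616, plus strand) encodes the JUN protein that is made steadily in resting cells and was likewise scattered. It stood at 19.7, 33.1 and 66.9 CPM in naive and at 23.6, 37.1 and 74.8 CPM in control libraries, with the highest values in naive 8 and control 2. Groups overlapped fully (log2 fold change 0.20, SE 0.26), and the sign turned with the length and GC trend removed (-0.08). The libraries labelled Tra2bKO held 16.5 and 26.2 CPM, of which the lower lay below all controls (-0.98, SE 0.42, edgeR adjusted p = 0.149). The longest Jund transcript is 67.2% G and C, higher than in 99.7% of tested genes. Removing the trend lowered the SD of the log2 level of Jund from 0.54 to 0.38 among naive and from 0.60 to 0.48 among control libraries. That of Junb went from 0.13 to 0.21 among naive and from 0.23 to 0.21 among control libraries. In control 2 and naive 8, Jund lay 0.94 and 0.96 above its group mean on the log2 scale. The median deviation of 678 other abundant genes of high GC content was 0.0079 and 0.044 there. The part of GC content in the scatter of Jund was not tested.

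Batf (ENSMUSG00000034266.6, chr12:85686669-85709087, plus strand) encodes the factor that opens chromatin with IRF4 in activated T cells and was the most abundant of the 10 per kilobase in stimulated libraries. It stood at 81.6, 98.7 and 115 CPM in naive and at 189, 220.4 and 261 CPM in control libraries. No control lay below a naive library. The log2 fold change was 1.17 (SE 0.08, edgeR adjusted p = 9.39e-10), a 2.26-fold higher level. The libraries labelled Tra2bKO stood at 252 and 213 CPM, inside the range of the controls. Their log2 difference from the controls was 0.08 with a 95% interval from -0.15 to 0.32, the narrowest interval among the 10 genes.

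Batf3 (ENSMUSG00000026630.9, chr1:191097847-191108945, plus strand) encodes a relative best known as the factor that cross-presenting dendritic cells require, and it is also made by activated CD8 T cells. It stood at 4.10, 7.26 and 11.5 CPM in naive and at 4.46, 11.7 and 22.8 CPM in control libraries. The groups overlapped: controls 1 to 4, at 4.46 to 10.8 CPM, lay inside the naive range, and controls 5 to 8, at 12.7 to 22.8 CPM, above it. The rise was called (log2 fold change 0.85, SE 0.30, edgeR adjusted p = 0.0175). It was 0.14 with controls 1 and 2 alone (adjusted p = 0.771). In the libraries labelled Tra2bKO Batf3 stood at 7.997 and 7.125 CPM, inside the range of the controls (-0.76, SE 0.51, edgeR adjusted p = 0.365). Controls 6, 7 and 8 were the highest in Batf3 as they were in Jun. They were also the highest controls in summed MHC class II transcripts, at 420, 446 and 254 CPM against 119 to 215 CPM in the other 5. Dendritic markers did not move together across the controls: Itgax, which holds most of the summed list there, was at 12.1 to 17.0 CPM in controls 6 to 8 and 21.7 to 31.6 CPM in the other 5, Zbtb46 was at 2.30 to 3.54 CPM and 1.07 to 2.35 CPM, and Xcr1 overlapped, at 3.22 to 4.83 CPM and 1.63 to 4.77 CPM. The part of MHC class II and dendritic transcripts in Batf3 was not tested.

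Atf3 (ENSMUSG00000026628.13, chr1:191170296-191218039, minus strand) encodes a factor that is nearly silent in unstressed cells. It stood at 0.648, 1.04 and 2.67 CPM in naive and at 0, 0.167 and 0.631 CPM in control libraries. Control 2 had 0 counts, which allows a level of up to 0.0403 CPM (3 counts, counting error only), and the highest control lay just below the lowest naive library. The log2 fold change was -2.57 (SE 0.53, edgeR adjusted p = 0.00028), a 5.93-fold lower level. The libraries labelled Tra2bKO, at 0.552 and 0.154 CPM, fell on either side of the mean of the controls (0.63, 95% interval from -1.27 to 2.52), and 14 to 43 counts lie behind them. Among naive libraries, naive 1 was highest both in Atf3 (2.67 CPM) and in summed MHC class II (3282 CPM) and dendritic markers (159.5 CPM), and naive 5 was lowest in all 3 measures, at 0.648 CPM, 1107 CPM and 70.3 CPM. Their part in the fall of Atf3 was not tested.

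Maff (ENSMUSG00000042622.14, chr15:79346621-79359076, plus strand) encodes a small MAF protein that can form repressive homodimers or pair with other leucine zipper factors. It stood at 0.291, 1.001 and 1.54 CPM in naive and at 0.664, 1.24 and 1.68 CPM in control libraries, which overlapped (log2 fold change 0.37, SE 0.26, edgeR adjusted p = 0.203). The libraries labelled Tra2bKO stood at 0.282 and 0.505 CPM, from 22 and 46 counts, and both lay below every control. The log2 fold change against the controls was -1.58 (SE 0.36, edgeR adjusted p = 0.0143), a 2.98-fold lower level. Maff was the 1 gene of 10 called, against 7.24% of 18651 genes called lower and 14.9% called either way, and groups did not overlap for 23.8% of genes. The call rested on both knockout libraries: the adjusted p was 0.116 without Tra2bKO 1 (log2 fold change -1.25) and 0.0544 without Tra2bKO 2 (-2.01). It was 0.111 with limma voom (log2 fold change -1.63) and 0.238 against controls 1 and 2 alone (-1.42).

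**Figure D2:**
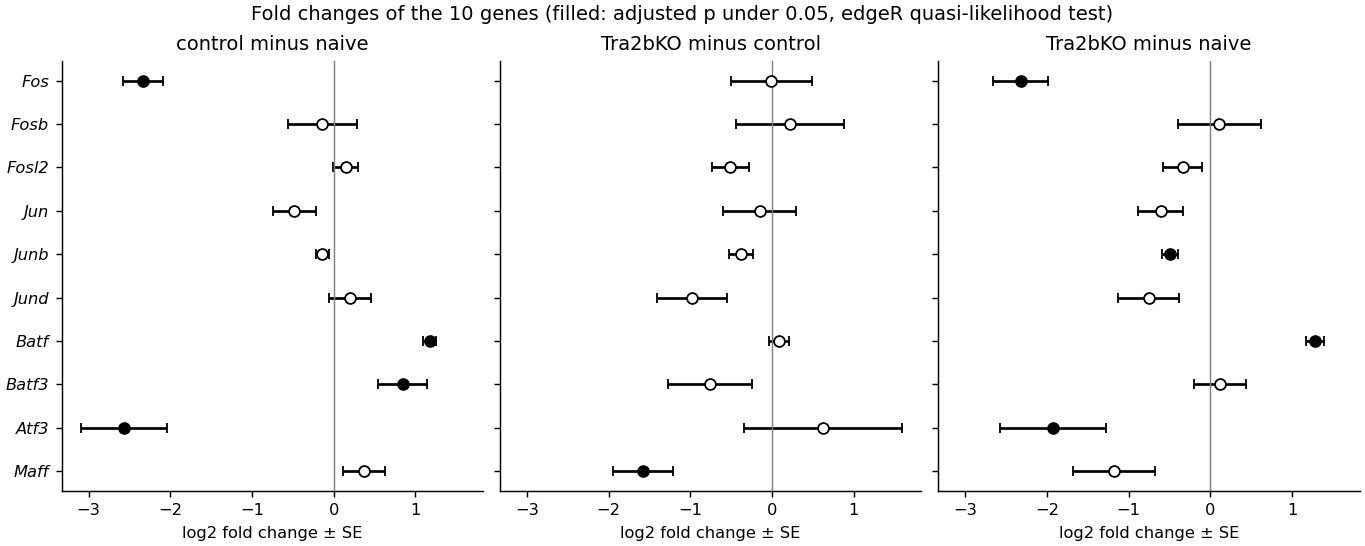
Log2 fold change ± SE (horizontal axis) of the 10 genes in 3 comparisons; filled points have an edgeR adjusted p under 0.05. Fos and Atf3 lie near -2.3 and -2.6 and Batf near 1.2 in control against naive, and Maff at -1.58 is the filled point in Tra2bKO against control.

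The comparison of libraries labelled Tra2bKO with naive libraries shares libraries with both others, and its values are given beside them. Batf was higher (log2 fold change 1.28, SE 0.11), and Fos (-2.32, SE 0.34), Atf3 (-1.93, SE 0.65) and Junb (-0.49, SE 0.10) were lower. That is 1 of 10 higher and 3 of 10 lower, where 21.1% of 19776 genes were called higher and 23.6% lower (44.7% either way). For Junb, both libraries labelled Tra2bKO (116 and 130 CPM) lay below the lowest naive library (156 CPM), at an edgeR adjusted p of 0.00146. In this comparison the groups did not overlap for 46.4% of all tested genes. The adjusted p became 0.0762 with the length and GC trend removed (-0.32). The Atf3 call (adjusted p = 0.0286) ended without Tra2bKO 2 (-1.30, adjusted p = 0.234), with all groups in one fit (-1.97, adjusted p = 0.0976) and with limma voom (-2.30, adjusted p = 0.105).

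Levels can be ranked between genes after division by the length of all exons. In naive libraries Junb led with a mean of 76.9 CPM per kilobase, Batf followed with 69.4 and Jund with 21.96, and Batf3 (4.46), Jun (4.12), Fos (2.36), Atf3 (0.671), Fosl2 (0.400), Maff (0.363) and Fosb (0.0788) came after. Junb exceeded Batf in 6 of 8 naive libraries with overlapping ranges, whereas Batf exceeded Jund and Jund exceeded Batf3 in 8 of 8 with none. In the controls Batf came first, with 156.7 CPM per kilobase against 69.8 for Junb and 25.2 for Jund, and it exceeded Junb in 8 of 8. Fos was at 0.459 CPM per kilobase there, between Maff (0.473) and Fosl2 (0.443), and the ranges of those 3 overlapped. The libraries labelled Tra2bKO had the same first 5 genes in the same order, at 165, 53.5, 12.8, 4.74 and 2.64 CPM per kilobase. With the length of the longest transcript in place of all exons, 8 of 10 genes kept their place in naive libraries, where Batf and Junb changed places at the top, 5 of 10 in control and 8 of 10 in Tra2bKO libraries.

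As a share of the summed level per kilobase of the 10 genes, Batf held 38.4 ± 2.61% in naive libraries (SD, n = 8), 59.4 ± 4.63% in controls (n = 8) and 72.3 and 65.2% in the libraries labelled Tra2bKO. Junb held 42.8 ± 4.83%, 26.5 ± 3.36%, and 20.4 and 24.4%. Fos held 1.31 ± 0.241%, 0.176 ± 0.0864%, and 0.104 and 0.281%. The highest naive value of Batf (42.1%) lay below the lowest control value (54.9%), and the lowest naive value of Junb (34.9%) lay above the highest control value (31.8%). A share of a sum moves with the other genes in it, so the lower share of Junb accompanied a Junb level that had not passed the test.

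**Figure D3:**
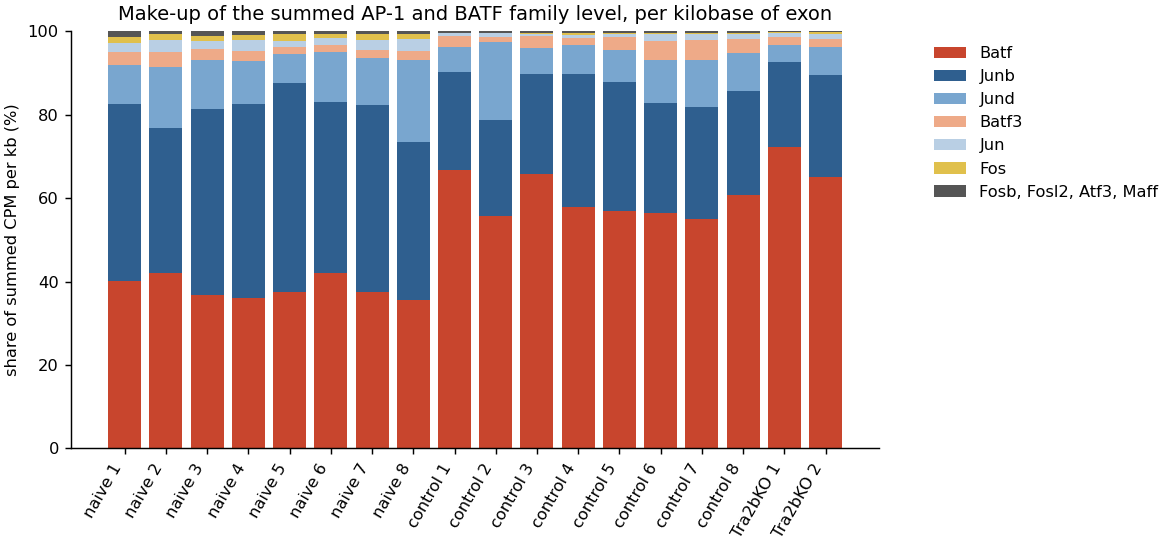
Share (%) of each gene in the summed CPM per kilobase of exon of the 10 genes, 1 bar per library. Batf holds 35.5 to 42.1% in the naive libraries and 54.9 to 72.3% in the stimulated ones, and Batf and Junb together make up most of every bar.

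The deposited transcript estimates were described without a test, since overlapping models share reads. Fos-201, the coding transcript, held 98.2% of Fos counts in naive, 94.9% in control and 97.3% in Tra2bKO libraries. Batf-202, a model with a retained intron, held 2.98 to 6.12% of Batf counts in naive libraries, 0.354 to 1.55% in controls and 1.07 and 1.12% in the libraries labelled Tra2bKO. The naive libraries thus lay above all stimulated ones in that share. Of the few Fosb counts, 165 of 301 in naive, 230 of 295 in control and 26 of 88 in Tra2bKO libraries went to Fosb-204. Fosb-204 also retains an intron, so a good part of Fosb reads were not assigned to coding models. Its share was erratic within groups, from 15.4 to 100% in naive, 3.03 to 100% in control and 8.51 to 53.7% in Tra2bKO libraries. The coding Batf3-201 held 76.3% of Batf3 counts in naive, 86.2% in control and 83.1% in Tra2bKO libraries. Maff-201 held 100% of Maff counts in control and Tra2bKO libraries and 77.1% in naive ones, where Maff-203 appeared in 1 library alone, at 72.2% of its Maff counts. Jun, Jund and, apart from at most 0.0827% of its counts, Junb had a single transcript, and their coding transcripts have 1 exon.

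Genes with the most similar pattern were sought among 7177 genes as those with the smallest root-mean-square difference in centred log2 CPM over the 18 libraries. For Batf these included Igsf8 (0.124) and Coq7 (0.136), where the own spread of Batf was 0.611. Igsf8 stood at 26.4 ± 3.61 CPM in naive and 54.8 ± 4.37 CPM in control libraries (SD, n = 8 each). For Fos they were St6gal1 (0.498), Treml2 (0.505) and Pdcd4 (0.519) against an own spread of 1.33, and Pdcd4 fell from 147 ± 30.3 CPM to 24.7 ± 4.58 CPM. For Atf3 they were H2-DMa (1.02), Cst3 (1.02) and Ifi205 (1.03) against an own spread of 1.75, so none followed Atf3 closely. H2-DMa and Cst3 are abundant in antigen-presenting cells. The ranking is dominated by the step between naive and stimulated libraries, which many genes share.

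Other genes of the pathway were read from fixed lists. Upstream, 6 of 24 genes of the MAP kinase modules were higher and 10 lower in control than in naive libraries, beside 32.5% and 39% of all genes. Rasgrp1, which couples the T cell receptor to RAS, fell from 199.7 ± 21.3 to 73.5 ± 9.07 CPM, and Map2k3, a kinase of the p38 branch, rose from 129 ± 16.0 to 276 ± 13.2 CPM. Of 12 activators of immediate early genes (the SRF, TCF and MEF2 list) 1 was higher and 8 were lower, Mef2a, Mef2d and Elk4 among them, each by a log2 fold change between -0.81 and -0.96. With the length and GC trend removed, 2 were higher and 5 lower. Of 27 other immediate early genes 2 were higher and 22 lower, with a median log2 fold change of -0.65 beside -0.08 over all genes. Those with the smallest p were Zfp36 (-2.09), which promotes decay of AU-rich transcripts, Rgs2 (-2.35) and Socs3 (-2.65).

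Among relatives and partners, 2 of 12 tested AP-1, BATF and MAF family genes were higher and 5 lower in control than in naive libraries; beside the counts that follow, 32.5% of all genes were called higher and 39% lower. Bach2, which competes for AP-1 sites and keeps T cells quiescent, fell from 39.2 ± 8.27 to 4.23 ± 1.49 CPM (log2 fold change -3.20), and Nfe2l2 (-0.91) and Mafk (-0.76) fell less. Of 18 CREB, ATF and C/EBP family genes 6 were higher and 4 lower, Ddit3 (-1.43), Atf1 (0.55) and Atf7 (-0.85) first by p. Among 6 IRF and NFAT genes, Irf4, a partner of BATF, rose from 14.8 ± 2.99 to 33.6 ± 2.33 CPM (1.18), and Irf8, which dendritic and B cells also express, fell from 171 ± 44.9 to 49.1 ± 12.2 CPM (-1.80); Nfatc3 fell by 0.22. All 10 AU-rich decay factors were called, 4 higher and 6 lower, and of 4 ubiquitin ligases of JUN 2 fell, Itch and Det1. Of 12 tested T cell genes with known AP-1 sites 6 were higher and 2 lower: Pdcd1 rose by 3.05 and Il2ra by 2.67 on the log2 scale, and Cd69 fell by 2.57.

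**Figure D4:**
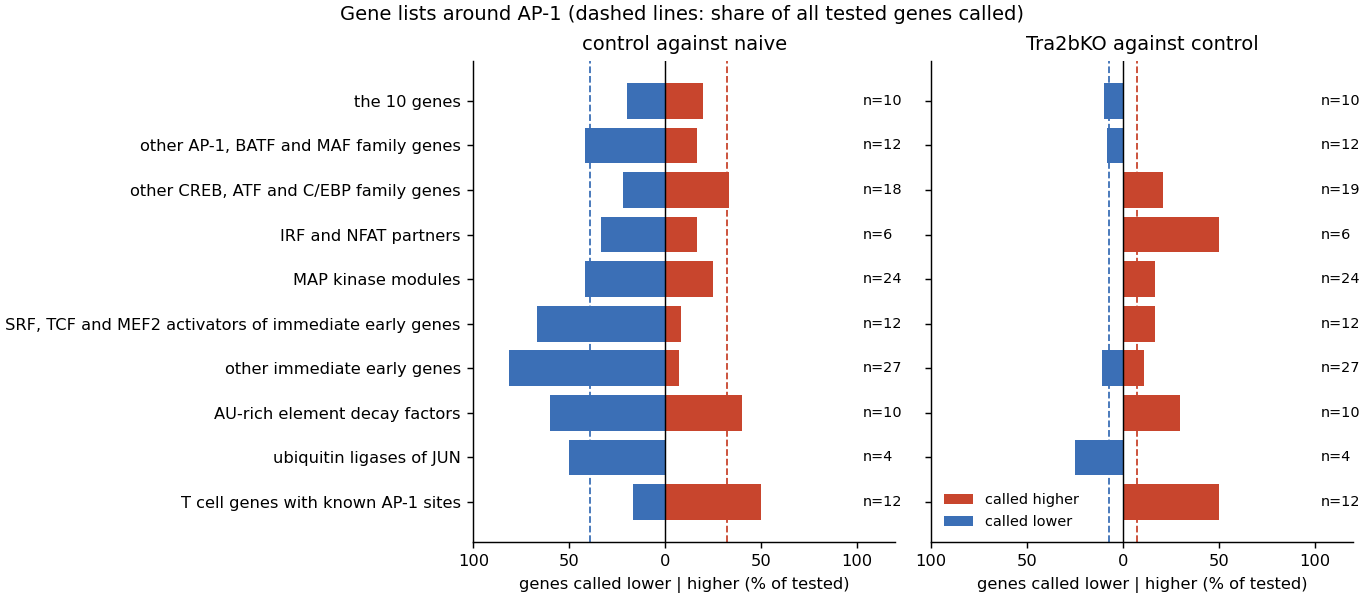
Share (%) of the tested genes of each list called higher (red, to the right) or lower (blue, to the left) in control against naive and in Tra2bKO against control libraries; dashed lines show the share of all tested genes. Other immediate early genes were called lower in 22 of 27 cases in the first comparison, and T cell genes with known AP-1 sites were called higher in 6 of 12 in the second.

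In libraries labelled Tra2bKO against controls, where Maff alone of the 10 genes was called, 6 of 12 T cell genes with known AP-1 sites were higher and 0 lower, beside 7.62% of all genes called higher. Cd69 stood at 47.8 and 41.5 CPM against 19.5 to 31.7 CPM in the controls, Ctla4 at 78.5 and 62.2 CPM against 27.4 to 47.5 CPM, and Fasl at 78.9 and 65.1 CPM against 28.5 to 59.4 CPM. None of these 3 overlapped the controls, but they were named for their small p, and 23.8% of all tested genes did not overlap either. Irf4, Nfatc3 and Nfat5 were higher among 6 IRF and NFAT genes, but Irf4 stood at 44.1 CPM in Tra2bKO 1 and 86.1 CPM in Tra2bKO 2, against 30.8 to 37.7 CPM in the controls, and Nfatc3 at 125.9 CPM in Tra2bKO 1 lay inside the control range of 92.5 to 134 CPM. Of 19 CREB, ATF and C/EBP genes 4 were higher and 0 lower, and Atf4, a stress-response factor, stood at 190.4 and 171.5 CPM against 119 to 132 CPM. Creb1 stood at 110.5 and 198 CPM against 68.5 to 81.3 CPM. Other called counts (higher, lower) were 4 and 0 of 24 MAP kinase genes (Rasgrp1, Araf and Map3k1 first), 2 and 0 of 12 SRF, TCF and MEF2 genes (Mef2a and Elk4), 3 and 3 of 27 immediate early genes (Cd69, Nr4a3 and Rgs1 higher), 3 and 0 of 10 decay factors (Rc3h1, Cnot1 and Rc3h2), 0 and 1 of 4 ligases (Det1), and 0 and 1 of 12 AP-1, BATF and MAF genes (Nfe2).

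Those list counts changed with the libraries used. With controls 1 and 2 alone, 0 genes of any of these lists were called, and 5 genes in all. Without Tra2bKO 2, the counts higher were 2 of the T cell genes, 0 of the IRF and NFAT genes, 2 of the CREB, ATF and C/EBP genes and 0 of the MAP kinase genes, and 651 genes were called in all instead of 2772. Without Tra2bKO 1 they were 1, 4, 5 and 4, with 2405 genes in all. Of the decay factors 1 was higher without Tra2bKO 2 and 3 without Tra2bKO 1, and of the SRF, TCF and MEF2 genes 0 and 2. Cnot1 stood at 156 CPM in Tra2bKO 1, inside the control range of 128 to 179.5 CPM, and at 529 CPM in Tra2bKO 2. Rc3h2 (16.4 and 30.8 CPM, controls 11.8 to 17.9 CPM) and Elk4 (22.3 and 41.2 CPM, controls 15.2 to 23.6 CPM) likewise lay inside the controls in Tra2bKO 1 and above them in Tra2bKO 2. Long genes stood apart in Tra2bKO 2: the median log2 level of 1167 of the longest genes was 0.35 above the mean of the controls there and 0.0086 above it in Tra2bKO 1. With the length and GC trend removed, 5 T cell genes and 2 IRF and NFAT genes were higher and 1 MAP kinase gene.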

How the data were processed

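Per the labels, RNA came from a miRNeasy micro preparation and cDNA from a SMARTer low-input polyA kit, which does not mark strand. The authors deposited estimated counts per gene and per transcript, written as whole numbers; for the 10 genes the gene value equals the sum of its transcripts. The submitters' processing notes name StringTie 2.1.0, DESeq2 1.30.1, STAR 2.7.1a, R 4.0.5 and SAMtools 1.9, and the builds mm39 and mm10, with no role for either build. Coordinates are GENCODE M21 (GRCm38), in which 55536 row identifiers were found. The other 26345 rows (0.0513 to 0.132% of counts) name no such gene and were left out. All 18 columns were matched to labels, and 0 were unused. No pair of libraries within a group agreed within sampling noise.

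Each comparison was fitted on its own groups with edgeR 4.0.16 in R 4.3.3 (filterByExpr with a minimum count of 10, TMM scaling, robust quasi-likelihood test, prior count 2, Benjamini-Hochberg over all tested genes, called under 0.05). SE is the log2 fold change divided by the root of the F statistic, and SD is the spread between libraries. The 95% intervals are built from SE with the normal quantile, so they are narrower than the F test implies. For Jund in Tra2bKO against naive, the interval from -1.48 to -0.02 left out 0 at an edgeR p of 0.0665. Levels are CPM with all 18 libraries TMM-scaled together. The members and lists were chosen with earlier results of these data known. The text names all 10 genes, up to 3 called genes per list with the smallest p, and for Fos, Batf and Atf3 the 3 genes most like each (1 of them is not reported here), among genes whose mean log2 CPM reached 4. List counts are described beside those of all genes, with no test of the list. Alternatives were DESeq2 1.42.0, RLE factors, total counts, other filters, all groups in one fit, the replicate number as a block, limma 3.58.1 voom with sample weights, correction for transcript length and GC content, subsets of the controls, and each library left out. The SD with the trend removed was added after seeing the data. On simulated counts the test recovered 98.6% of 2-fold changes for control against naive and 87.3% for Tra2bKO against control. False calls were 8 each among 16708 and 17907 genes. For Tra2bKO against naive the test recovered 79.2% of 2-fold changes. Of 1.5-fold changes it recovered 85.7%, 49.3% and 22.5% in these 3 comparisons. The changed genes were drawn only from more abundant genes, so these rates do not cover the scarce members Fos, Fosb, Fosl2, Atf3 and Maff.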

Additional observations from a re-analysis of the deposited data

How the results depend on the processing

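For control against naive, Fos, Batf and Atf3 kept their direction and call in all 26, 27 and 26 alternatives tried, with log2 fold changes from -3.06 to -2.13, 1.06 to 1.25 and -3.79 to -2.29. Batf3 lost its call in 2 of 26 (replicate block, adjusted p = 0.0989, and controls 1 and 2 only, 0.771). Testing only genes whose mean log2 CPM reached 4 left Junb, Jund and Batf and removed the scarcer members, Fos and Atf3 among them. For control against naive it gave 6061 called genes, with 1 member higher and 1 lower (Junb, -0.25, adjusted p = 0.00832, not called with all tested genes). For Tra2bKO against control 0 members were lower. For Tra2bKO against naive 4883 genes were called, with 1 member lower. Replicate numbers were not taken as pairs: residuals of same-numbered control and naive libraries had correlations from -0.169 to 0.312, with 1 of 8 highest with its own number, and those of control and Tra2bKO libraries 0.199 and 0.216, with 1 of 2. With the replicate block, 1 member was higher for control against naive, 0 genes and 0 members were called for Tra2bKO against control, and 3322 genes were called for Tra2bKO against naive. The block also gave Jun a call for control against naive (-0.59, adjusted p = 0.0419), and for Tra2bKO against naive ended that of Junb (-0.37, adjusted p = 0.126) and gave Jund one (-0.73, adjusted p = 0.0398). None of the pathway lists had a called gene for Tra2bKO against control with the block. The fit of Tra2bKO against control with the block rests on 2 shared numbers. In it, the log2 fold change of Fos was 0.73, of Jun 0.23 and of Batf3 0.11, and against naive that of Fosb was -0.50 and of Batf3 -0.39. With limma voom 0 members were lower for Tra2bKO against control. With controls 1 and 2 only, 1 member was higher and 5 were lower than in naive libraries. The share of all genes called in that fit is not reported here. With all controls, 32.5% of all tested genes were called higher and 39% lower. Against Tra2bKO, controls 1 and 2 only gave 5 called genes and 0 called members, with Fos at 0.77 and Jun at 0.25. With controls 3 to 8 only, Fosb was at 0.19 (control against naive) and -0.067 (Tra2bKO against control). With the length and GC trend removed, Fosb (0.046) and Jund (-0.076) turned sign for control against naive and Fos (0.10) for Tra2bKO against control, where DESeq2 (0.00585) and RLE factors (0.0062) turned Fos as well. None of these turned values was called.

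Leaving out each library in turn gave 11976 to 12243 called genes for control against naive, 651 to 2858 for Tra2bKO against control (651 without Tra2bKO 2) and 6766 to 8986 for Tra2bKO against naive. Members called lower ranged from 0 to 2 for Tra2bKO against control and from 2 to 5 for Tra2bKO against naive (5 without naive 5). Log2 fold changes ranged from -0.38 to 0.056 for Fosb in control against naive, from -0.80 to 0.49 for Fos, -0.28 to 0.033 for Jun, -0.055 to 0.21 for Batf and -0.47 to 1.24 for Atf3 in Tra2bKO against control, and from -0.012 to 0.25 for Fosb in Tra2bKO against naive. A lone Tra2bKO library was assumed to vary like the controls. Beside the counts of members called lower, all libraries together gave 7.24% of all tested genes lower for Tra2bKO against control. For Tra2bKO against naive that share was 23.6%. Scaling by total counts moved the median log2 fold change of all genes for Tra2bKO against naive from -0.08 to -0.19. The cause of these changes was not tested. Depth limits Fosb, Atf3 and Maff most, which rested on 0 to 214 counts per library.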

Other observations

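Fos, Jdp2 and Batf are 3 leucine zipper genes that follow each other on the plus strand of chromosome 12 (GRCm38), with 0 other protein-coding genes between them. Fos lies at chr12:85473890-85477273, Jdp2 at chr12:85599027-85639878, 121.8 kb further on, and Batf at chr12:85686669-85709087, 46.8 kb beyond Jdp2. These 3 neighbours differed in control against naive libraries: Fos fell by 2.34 on the log2 scale, Jdp2, which encodes a repressive partner of JUN, stood at 4.40 ± 1.64 CPM and 4.45 ± 1.29 CPM (SD, n = 8 each; log2 fold change 0.02, edgeR adjusted p = 0.952), and Batf rose by 1.17. Batf3 (chr1:191097847-191108945, plus strand) and Atf3 (chr1:191170296-191218039, minus strand) lie 61.4 kb apart with 1 protein-coding gene, Fam71a, between them, and Batf3 rose by 0.85 where Atf3 fell by 2.57. The neighbours were looked at after their values had been seen, and no test of position was made.

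Naive 5 was the naive library with the lowest level of Jun (7.81 CPM), Jund (19.7 CPM), Batf3 (4.10 CPM), Atf3 (0.648 CPM) and Maff (0.291 CPM), and it was the one with the highest level of Fos (6.85 CPM) and of Fosl2 (5.64 CPM). It also held the least summed MHC class II (1107 CPM) and dendritic cell (70.3 CPM) transcripts of the 8 and the most Cd69 (237 CPM). Because naive 5 was the lowest in Jun and Maff, leaving it out raised the naive means of both. Without naive 5, Jun and Maff passed the test for Tra2bKO against naive, at log2 fold changes of -0.69 (edgeR adjusted p = 0.0259) and -1.31 (adjusted p = 0.0134). With all libraries neither was called (-0.61, edgeR adjusted p = 0.0922, and -1.18, adjusted p = 0.073). Neither was called when any other naive library was left out.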
